A study of Arabidopsis thaliana with 4 samples.

Results

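HSFA2 and 9 heat shock protein genes, 10 of the 27322 genes measured, were followed in shoot apices of Arabidopsis thaliana. They were chosen by their gene identifiers, with earlier results of these data known, and all 10 were found. The apices came from 6-week-old plants kept at 22 °C in days of 16 h of light and 8 h of dark, with the older flowers taken off. Both genotypes are listed with stratification, a cold period for seeds, of 2 days at 4 °C. The poly(A) RNA of the apices was sequenced from strand-specific libraries. One genotype was mp clv3, given in the growth description as mp319 clv3-7, and the other was clv3, labelled with 2 libraries each. The mutation in CLV3, the peptide gene that restricts the stem cells of the shoot apex, is shared by both genotypes according to their labels, and mp clv3 also carries a mutation in MP (MONOPTEROS), whose product answers to auxin and is needed to start flowers. For the clv3 plants the growth description has Col-0 instead, and the genotype labels were followed. No treatment with heat is given for either genotype.

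Heat shock proteins are chaperones that keep other proteins folded or take aggregates apart. Their genes are switched on by heat shock factors, which bind repeats of the short unit GAA in alternating orientation, called heat shock elements. In Arabidopsis, factors of the HSFA1 group start the response, and HSFA2, itself made on heat, prolongs and strengthens it. Small heat shock proteins hold unfolding proteins without using ATP, and HSP101, HSP70 and HSP90 act on them with ATP. Several of these genes also respond to oxidative stress and low oxygen, and some are used in flowers and seeds without heat.

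The values are the authors' own, a single set of reads and of RPKM (reads adjusted for the length of the gene model and the depth of the column) per genotype. The mp clv3 column held 103347441 reads and the clv3 column 100328819. The spread between libraries is therefore unknown, no difference below has a replicate check, and every interval (95%, exact, on read pairs) covers counting error only. A gene was called where the false discovery rate (FDR, an adjusted p-value) in the authors' deposited table was under 0.05, and "rose", "fell", "higher" and "lower" are used of called genes. That table calls 72.7% of all genes, 26.4% higher and 46.3% lower in mp clv3, so a call alone says little about a gene. Genes averaging 100 reads or more had a median log2 ratio of -0.12, and small differences are read against that shift. MP had 5063 reads in mp clv3 and 25336 in clv3, 5.15-fold lower (interval 4.94 to 5.38). CLV3 had 1278 reads in mp clv3 and 110 in clv3, 11.3-fold higher (interval 8.56 to 15.1), and since both genotypes are labelled as clv3 mutants it checks no label. All 4 genes of the apex marker list, WUS, STM, CLV1 and CLV3, had reads in both genotypes.

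The sequences before the genes are shown because the element that heat shock factors bind can be read in them. They are the 250 bases before the annotated start of the gene, written 5′ to 3′ on the strand of the gene, from RefSeq's TAIR10.1, and capitals mark matches to GAANNTTC or TTCNNGAA, both of which read the same on either strand. HSFA2 and HSP17.4 hold matches of 3 units, in which GAANNTTC goes on with NNGAA, while the windows of HSP17.6II and HSP18.2 hold no match. HSFA2 and HSP17.6II are the genes with the largest ratios between the genotypes, and HSP17.4 and HSP18.2 are related small heat shock proteins with unequal ratios.
HSFA2 (chr2:11135374-11135623, plus strand): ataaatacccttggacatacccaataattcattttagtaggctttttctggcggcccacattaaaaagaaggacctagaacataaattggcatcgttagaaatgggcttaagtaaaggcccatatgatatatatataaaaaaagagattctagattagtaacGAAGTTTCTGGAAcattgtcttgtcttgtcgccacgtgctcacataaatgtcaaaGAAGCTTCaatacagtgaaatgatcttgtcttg
HSP17.4 (chr3:16984868-16985117, minus strand): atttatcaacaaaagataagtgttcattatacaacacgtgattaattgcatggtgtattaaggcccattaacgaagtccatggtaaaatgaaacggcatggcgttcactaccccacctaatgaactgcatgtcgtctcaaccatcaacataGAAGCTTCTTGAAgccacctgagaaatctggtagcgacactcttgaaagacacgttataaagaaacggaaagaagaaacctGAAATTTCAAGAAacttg
HSP17.6II (chr5:3883112-3883361, minus strand): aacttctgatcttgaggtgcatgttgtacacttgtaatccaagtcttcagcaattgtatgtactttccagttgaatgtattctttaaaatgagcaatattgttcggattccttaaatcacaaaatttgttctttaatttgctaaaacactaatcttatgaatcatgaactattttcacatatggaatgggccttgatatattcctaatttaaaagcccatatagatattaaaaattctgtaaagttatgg
HSP18.2 (chr5:24062073-24062322, plus strand): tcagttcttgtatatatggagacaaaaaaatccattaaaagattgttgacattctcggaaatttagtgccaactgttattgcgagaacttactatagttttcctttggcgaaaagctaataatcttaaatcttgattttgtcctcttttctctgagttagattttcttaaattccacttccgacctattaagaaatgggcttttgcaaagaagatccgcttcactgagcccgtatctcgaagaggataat

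Counting the first 50 bases of the gene as well, 6 of the 10 windows held a match of 2 units, against 19.1% of 26639 promoters. These are the promoters of measured genes that could be read in the reference, called all promoters below. Matches of 3 units (GAANNTTC followed by NNGAA, or TTCNNGAA followed by NNTTC, both of which contain 2 overlapping 2-unit matches) stood in 3 of the 10 windows, those of HSFA2, HSP17.4 and HSP70-4, against 0.492% of promoters. In HSP70-4 the match begins 20 bases after the start. Single 2-unit matches lie after the start in HSP101 and HSP23.6. Upstream of the start alone only HSFA2, HSP17.4 and HSP21 keep a 2-unit match, which 16% of all promoters hold there. These shorter stretches around the matches are shown because they lie outside the windows above.
HSP70-4 (chr3:3993846-3993874, minus strand): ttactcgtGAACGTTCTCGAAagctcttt
HSP101 (chr1:27940323-27940350, minus strand): taaaataagcGAAAATTCcacgtgacat
HSP23.6 (chr4:12916929-12916956, plus strand): cacttctccaGAACATTCactcactgac
HSP21 (chr4:13820054-13820081, minus strand): aacgagtcgaGAAACTTCgtatcaaatc
HSP90.1, HSP17.6II, HSP18.2 and HSP22 had no match, and for HSP90.1 the transcript in the reference has no 5′ UTR, so the last 50 bases of its window are coding sequence. A match is a run of letters, not a bound site, and a window without these letters says nothing of whether a factor binds there. The windows also depend on the starts in the reference. Its transcripts have 881 bases for HSP17.6II and 978 for HSP18.2, where the authors' gene models have 702 and 701. Where those models start is not known here, and sequence outside the windows was not searched.

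**Figure D1:**
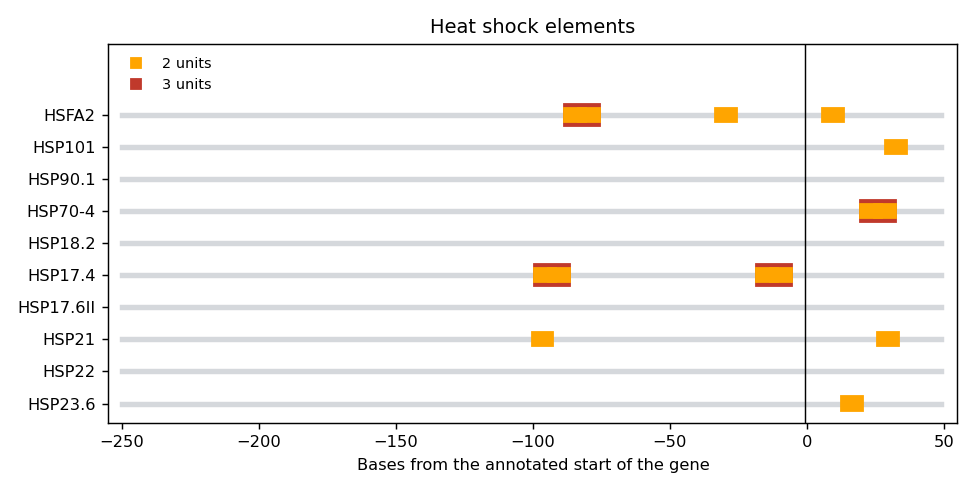
Heat shock elements from 250 bases before to 50 bases after the annotated start of each gene, with the first base of the gene at 0. Orange blocks are 2-unit matches and the taller red blocks behind them 3-unit matches. HSFA2 and HSP17.4 carry 3-unit matches before the start and HSP70-4 one after it, while 4 genes carry no match of either kind.

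In mp clv3, 8 of the 10 genes were higher in the authors' deposited table, against 26.4% of all genes, and 1 (HSP90.1) was lower, against 46.3%. HSFA2 and 4 small heat shock protein genes were at least 2-fold higher, against 9.33% of all genes. In whole apices, more cells of a type and more RNA per cell cannot be told apart. The median log2 ratio was 1.63 over all 10 heat shock genes, beside -0.11 over all 27322 genes, with 0.5 reads standing for 0 as deposited. The large ratios belong to genes with few reads in clv3, and the abundant chaperones among the 10 changed by less than 2-fold. Summed over the 10 genes, the level was 39.0 RPKM in mp clv3 and 25.2 RPKM in clv3.

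Markers of other tissues and states differed beside these genes. All 10 tapetum and pollen wall genes of the anther list were lower, with a summed level of 13.9 RPKM in mp clv3 and 752 RPKM in clv3, and MS2 and MYB80 had 0 reads in mp clv3. All 9 low-oxygen genes were higher, with a summed level of 3035 RPKM in mp clv3 and 126 RPKM in clv3, such as ADH1 at 1019 RPKM in mp clv3 and 12.7 RPKM in clv3. The 4 apex markers were also higher, with a summed level of 296 RPKM in mp clv3 and 127 RPKM in clv3, most of it from STM at 217 RPKM in mp clv3 and 98.8 RPKM in clv3. The part of these differences in the values of the 10 genes was not tested.

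**Figure D2:**
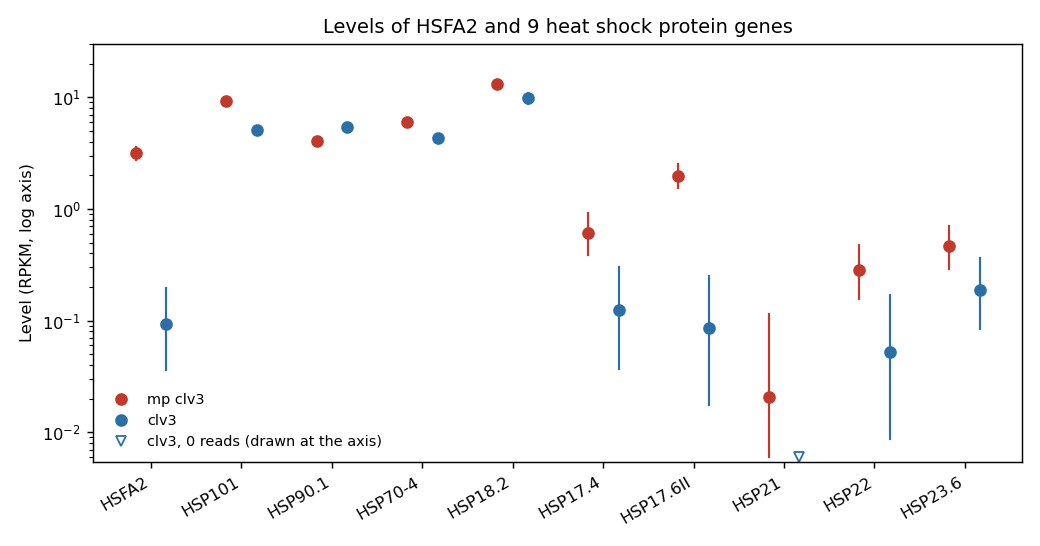
Levels of the 10 genes in RPKM on a log axis, mp clv3 in red left of clv3 in blue, 1 deposited value per genotype. Lines are 95% counting intervals (the lower end for HSP21 is cut off by the axis), and the open triangle marks HSP21 with 0 reads in clv3. HSP18.2, HSP101, HSP70-4 and HSP90.1 stand above 4 RPKM in both genotypes, and HSFA2 and HSP17.6II are the genes with the widest gap.

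HSFA2 (AT2G26150), the transcription factor of the group, had 453 reads in mp clv3 and 13 reads in clv3. Its level was 3.15 RPKM in mp clv3 and 0.0932 RPKM in clv3. The ratio was 33.8 with an interval from 15.75 to 88.8, and the FDR in the authors' deposited table was 1.0e-104. Of the 27322 genes, HSFA2 ranked at place 304 by log2 ratio. Its level stood at percentile 41.9 of all genes in mp clv3 and at 18.9 in clv3, a moderate level in mp clv3 and a low one in clv3. The gene lies on the plus strand of chromosome 2 (chr2:11135624-11137792 in TAIR10.1), has 4 annotated transcripts of 2 to 4 exons, which the values join, and overlaps no other annotated gene.

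HSP101 (AT1G74310), the disaggregase of the cytosol that plants need to acquire heat tolerance, had 3018 reads in mp clv3 and 1633 reads in clv3. It stood at 9.23 RPKM in mp clv3 and 5.14 RPKM in clv3, 1.79-fold higher (interval 1.65 to 1.96, FDR 8.9e-84 in the authors' deposited table). Its gene overlaps 101 bases of AT1G74300 on the other strand, which had 656 reads in mp clv3 and 553 in clv3. HSP70-4 (AT3G12580, HSP70 in the reference), a heat-inducible HSP70 of the cytosol, had 1430 reads in mp clv3 and 980 reads in clv3. Its level was 6.06 RPKM in mp clv3 and 4.28 RPKM in clv3, 1.42-fold higher (interval 1.26 to 1.59, FDR 5.3e-17 in the authors' deposited table).

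HSP90.1 (AT5G52640), the heat-inducible HSP90 of the cytosol, went the other way and was the only gene of the 10 called lower. It had 1043 reads in mp clv3 and 1354 reads in clv3. The level was 4.08 RPKM in mp clv3 and 5.45 RPKM in clv3, 1.34-fold lower (interval 1.19 to 1.50, FDR 2.7e-12 in the authors' deposited table). Its log2 ratio of -0.42 became -0.30 with the median of well-read genes set to 0, and -0.21 with quantile normalization. HSP101, HSP70-4 and HSP90.1 thus had different orders in the genotypes: HSP101 was the highest and HSP90.1 the lowest of these 3 in mp clv3, while HSP90.1 and HSP101 lay within counting error of each other and above HSP70-4 in clv3.

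The small heat shock proteins of the cytosol ranged from the most abundant of the 10 genes to genes with few reads in clv3. HSP18.2 (AT5G59720), of class I, had the highest level of the 10 genes in both genotypes, with 949 reads in mp clv3 and 687 reads in clv3. That is 13.1 RPKM in mp clv3 and 9.77 RPKM in clv3, 1.34-fold higher (interval 1.16 to 1.55, FDR 6.5e-09 in the authors' deposited table). HSP17.4 (AT3G46230), also of class I, had 46 reads in mp clv3 and 9 reads in clv3, or 0.615 RPKM in mp clv3 and 0.124 RPKM in clv3. Its ratio of 4.96 has an interval from 1.77 to 18.0, and the FDR in the authors' deposited table was 5.2e-07. The intervals of HSP17.4 and HSP18.2 do not overlap, although their coding sequences are 77.0% identical. HSP17.6II (AT5G12020), of class II, had 144 reads in mp clv3 and 6 reads in clv3. It stood at 1.98 RPKM in mp clv3 and 0.0852 RPKM in clv3, 23.3 times as much (interval 7.66 to 116, FDR 4.5e-33 in the authors' deposited table), next to HSFA2 in size.

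Reads of HSP17.4 need care because the reference has other genes on the opposite strand there. AT3G46220 shares 60 bases with it and had 4247 reads in mp clv3 and 4857 in clv3. The noncoding gene AT3G07365 covers 453 bases of it and was not analysed here. The libraries keep strand, but the sources used here do not say whether counting did, so reads of these genes and of HSP17.4 cannot be told apart. No other gene among the 10 except HSP101 overlaps an annotated gene. No stretch of 100 bases, the read length, in the longest transcript of any of the 10 occurs on the same strand in a transcript of another gene. The closest relatives in coding sequence were HSP17.6C-CI for HSP17.4 (85.0% identical) and the neighbouring HSP17.6A for HSP17.6II (86.1%), and such reads stay apart only as far as the mapping kept them so.

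The members made for organelles had few reads. HSP22 (AT4G10250, ATHSP22.0 in the reference), of the endoplasmic reticulum, had 28 reads in mp clv3 and 5 reads in clv3. At 0.285 RPKM in mp clv3 and 0.0525 RPKM in clv3 its ratio was 5.44, with a wide interval from 1.40 to 36.3 and an FDR of 5.6e-05 in the authors' deposited table. HSP23.6 (AT4G25200, HSP23.6-MITO in the reference), of mitochondria, had 43 reads in mp clv3 and 17 reads in clv3. The level was 0.462 RPKM in mp clv3 and 0.188 RPKM in clv3, 2.46-fold higher (FDR 0.0013 in the authors' deposited table), with an interval from 1.07 to 6.22 that nearly reaches 1. With quantile normalization the log2 ratio of HSP22 was 3.66 instead of 2.44, and that of HSP23.6 was 2.44 instead of 1.30. HSP21 (AT4G27670), of plastids, had 2 reads in mp clv3 and 0 in clv3. Both are at or under the floor of 6 reads that a count of 0 allows, so no ratio is given, and a difference was not detectable at this depth.

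**Figure D3:**
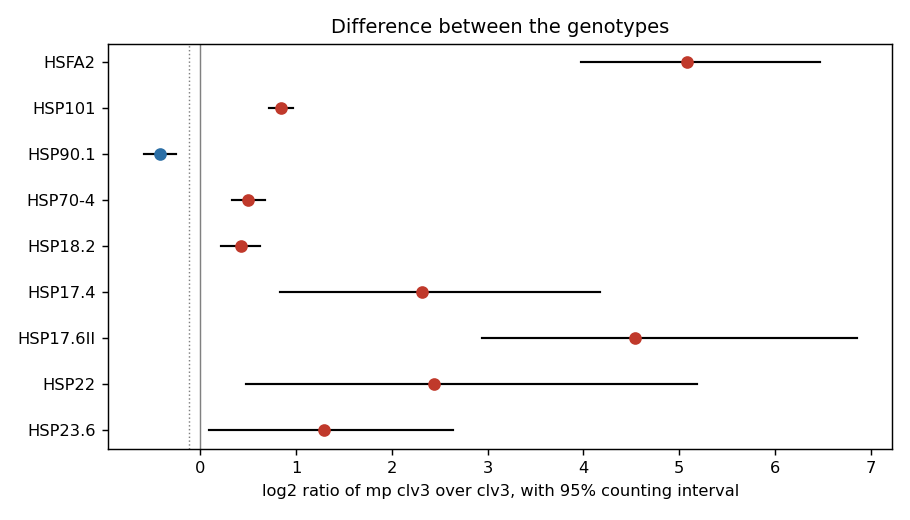
The log2 ratio of mp clv3 over clv3 for the 9 genes with a ratio, with 95% counting intervals. The solid line is 0 and the dotted line the median of genes averaging 100 reads or more (-0.12). HSP90.1 lies below both lines and the other 8 above, with HSFA2 (5.08) and HSP17.6II (4.54) furthest to the right.

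The order of levels differed between the genotypes. In mp clv3 it ran HSP18.2, HSP101, HSP70-4, HSP90.1, HSFA2, HSP17.6II, HSP17.4, HSP23.6, HSP22 and HSP21, and the intervals of neighbours overlapped only between HSP17.4 and HSP23.6 and between HSP23.6 and HSP22. In clv3 it ran HSP18.2, HSP90.1, HSP101, HSP70-4, HSP23.6, HSP17.4, HSFA2, HSP17.6II, HSP22 and HSP21. There HSP90.1 and HSP101 did not differ beyond counting error, nor did any neighbours from HSP23.6 down to HSP22. HSFA2 made up 8.08% of the summed RPKM of the 10 genes in mp clv3 and 0.370% in clv3, and HSP90.1 10.5% in mp clv3 and 21.6% in clv3. The RPKM rest on the authors' gene model lengths, for instance 1391 bases for HSFA2 and 701 for HSP18.2, where the longest transcript in the reference has 1876 bases for HSFA2 and 978 for HSP18.2.

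The authors' deposited table called 16 of the 21 heat shock factors higher and 2 lower, and 15 and 2 of the 20 without HSFA2. Of genes averaging 100 reads or more it called 34.3% higher and 53.3% lower. The median log2 ratio was 0.96 over all 21 factors and 0.91 without HSFA2. HSFA7A, a heat-induced factor of class A like HSFA2, had 120 reads in mp clv3 and 9 in clv3, a ratio of 12.9 (interval 5.04 to 44.6). Of the 21 windows 3 hold 3-unit elements, those of HSFA2, HSFA7A and HSFA7B. HSFA7B had 4 reads in mp clv3 and 2 in clv3, under the floor of 6 reads, and was not called. HSFA6B, whose window holds no match, had 655 reads in mp clv3 and 58 in clv3, 11.0-fold higher. HSFA4A stood at 47.1 RPKM in mp clv3 and 5.09 RPKM in clv3. The 4 factors of the HSFA1 group lay within 2-fold. HSFA1A had 7.98 RPKM in mp clv3 and 7.63 RPKM in clv3 and was not called, and HSFA1D was 1.17-fold, HSFA1B 1.50-fold and HSFA1E 1.79-fold higher. HSFB1, a class B factor, which as a class act mainly as repressors, was 8.96-fold higher, and HSFC1 was 3.97-fold lower. HSFA6A was called lower in the authors' deposited table with 16 reads in mp clv3 and 32 in clv3, but its interval covers 1 and its ratio turned with quantile normalization.

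Of all 19 small heat shock proteins, 6 of which are among the 10 genes, the authors' deposited table called 12 higher and 6 lower. That is 63.2% and 31.6%, against 26.4% and 46.3% of all genes. Without those among the 10 genes, 7 of 13 were higher (53.8%) and 6 lower (46.2%), the lower share being near that of all genes. All 6 of class I and both of class II in the cytosol were higher, and so were all 3 of mitochondria. HSP17.6C-CI had 63 reads in mp clv3 and 6 in clv3, a ratio of 10.2 (interval 3.18 to 52.1). HSP17.6A of class II, the neighbour of HSP17.6II, had 80 reads in mp clv3 and 8 in clv3, and mitochondrial HSP23.5 was 7.04-fold higher. The remaining 8 are of several kinds and hold the 6 lower genes as well as HSP22 and HSP21, with HSP14.2 at 20.1 RPKM in mp clv3 and 95.5 RPKM in clv3, HSP18.5 4.67-fold and HSP15.4 3.14-fold lower. HSP14.2 and HSP15.4 were the most abundant of the 19 in clv3. The summed level of all 19 was 79.0 RPKM in mp clv3 and 168 RPKM in clv3, while that of class I was 24.3 RPKM in mp clv3 and 14.5 RPKM in clv3.

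**Figure D4:**
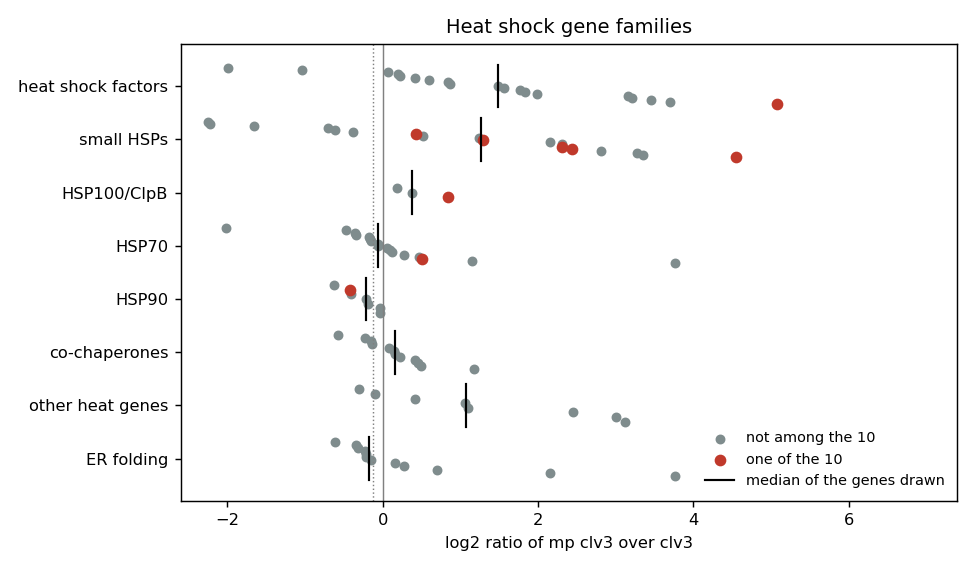
The log2 ratio of mp clv3 over clv3 for genes of 8 heat shock and protein folding lists, without genes at 6 reads or fewer in both genotypes. Red points are the 9 genes with a ratio, black bars the median of the genes drawn, and the dotted line is at -0.12. Heat shock factors and small heat shock proteins reach from about -2 to 5, while every HSP100 and HSP90 gene lies within 2-fold.

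Most genes of the large chaperone families lay within 2-fold, among them all HSP100 and HSP90 genes, and of 17 HSP70 genes 2 were higher and 1 lower by more than that. The other HSP100 genes, CLPB4 of mitochondria and CLPB3 of plastids, were 1.30-fold and 1.14-fold higher, below the 1.79 of HSP101. All 7 HSP90 genes were lower in the authors' deposited table by at most 1.54-fold (HSP90.5, of plastids), as were 53.3% of genes averaging 100 reads or more. With the median of well-read genes set to 0, 5 of the 7 stayed lower, HSP90.2 and HSP90.3 turning to log2 ratios of 0.09 and 0.08. HSP90.4 was 1.33-fold and HSP90.7, of the endoplasmic reticulum, 1.16-fold lower, so HSP90.1 at 1.34-fold lay within its family. Of 17 HSP70 genes, 8 were higher (47.1%) and 9 lower (52.9%), or 10 and 7 with that median at 0. Among genes averaging 100 reads or more the shares were 34.3% higher and 53.3% lower, so the lower HSP70 genes were near that share. HSC70-1, the main HSP70 of the cytosol, had 962 RPKM in mp clv3 and 1006 RPKM in clv3, over 100 times the level of HSP70-4. HSP70-2 was 2.22-fold and HSP70-3 1.38-fold higher, but HSP70B, which like HSP70-4 is known as heat-inducible, was 1.39-fold lower. HSP70T-1 had 42 reads in mp clv3 and 165 in clv3, and the plastid gene cpHSC70-1 was 1.28-fold lower. HSP70-15, a close copy of HSP70-14, was not analysed here.

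Of 12 co-chaperones, the authors' deposited table called 8 higher (66.7%) and 4 lower (33.3%), and their log2 ratios had a median of 0.15. The J-protein ATJ2 (2.25-fold) was the only co-chaperone at least 2-fold apart, HOP2, which links HSP70 with HSP90, was 1.41-fold and the ubiquitin ligase CHIP 1.36-fold higher, while ROF2 was 1.49-fold, BAG6 1.17-fold and P23-1 1.11-fold lower. Among 8 other heat response genes 6 were higher (75%, against 26.4% of all genes). HSBP, a binding partner of heat shock factors, was 1.24-fold lower and the only one called lower (12.5%, against 46.3%). DREB2C and DREB2A, regulators of drought and heat genes, were 8.65-fold and 8.00-fold higher, and GOLS1, a galactinol synthase, 5.45-fold. Of 12 genes for folding in the endoplasmic reticulum, 5 were higher (41.7%) and 7 lower (58.3%). These shares lie near the 34.3% and 53.3% of genes averaging 100 reads or more. BIP3, the inducible binding protein of that compartment and also in the HSP70 list, had 210 reads in mp clv3 and 15 in clv3, and BZIP60, a regulator of its stress response, was 4.44-fold and BZIP28 1.62-fold higher. The abundant CRT1, CRT2 and PDIL1-1 were 1.53-fold, 1.27-fold and 1.25-fold lower.

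**Figure D5:**
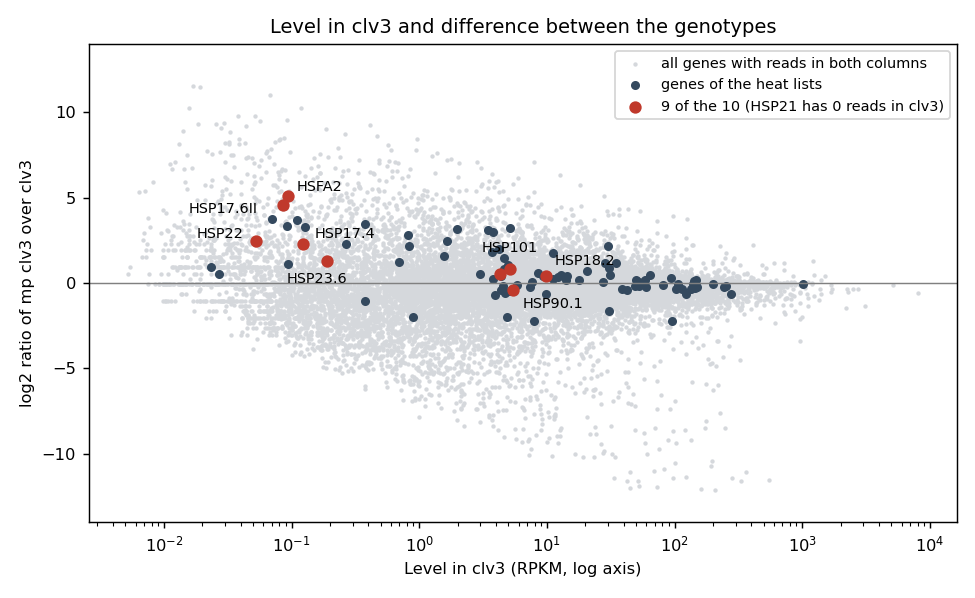
The level in clv3 (RPKM, log axis) against the log2 ratio of mp clv3 over clv3. Grey points are all genes with reads in both genotypes, dark points genes of the 8 lists and red points 9 of the 10 genes. The members with ratios above 2-fold stand under 0.2 RPKM in clv3, where the grey cloud is wide as well, and HSC70-1 at 1006 RPKM lies close to 0.

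Across the whole table, 55 of the 131 genes whose windows hold a 3-unit element were higher in the authors' deposited table (42.0%), against 7062 of 26508 without one (26.6%), and 48 were lower (36.6%, against 47.0%). Outside the heat lists 46 of 120 such genes were higher (38.3%) and 47 lower (39.2%). Of genes with a 2-unit element 28.7% were higher, against 26.3% without one, and 45.7% were lower, against 47.3%. These shares are a description and their difference was not tested.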

How the data were processed

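RNA-seq of apices from 4 libraries, 2 per genotype, was used as deposited. Per the submitters' processing notes, CASAVA 1.7, BWA and TAIR10 were used, and the sources used here name neither the counter nor the test behind the FDR. The authors deposited estimated counts (reads per gene, joined over the libraries of a genotype in a way not stated, with 0.5 standing for 0, read here as 0) and RPKM, per the file headers. They also deposited a log2 ratio of mp clv3 over clv3 and an FDR, an adjusted p-value, per the file headers. Recomputing the log2 ratio from RPKM differed by at most 5.3e-14.

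Of 27323 rows, 1 with shifted cells (AT1G01010) was left out. Of the values from 1 to 9, 82.5% in mp clv3 and 83.3% in clv3 were even numbers, as when both mates of a pair are counted, and Clopper-Pearson and Poisson intervals at 95% were computed on reads divided by 2. Folds were scaled by column totals. The floor was 3 read pairs, or 6 reads. PCR copies are not independent molecules. The intervals were checked on simulated counts that held only the counting error they assume. That check does not cover PCR copies or the spread between libraries. The planned edgeR test needs values per library and was not run, so calls are the authors'.

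Names, transcripts and sequences came from RefSeq TAIR10.1 by locus tag, which matched 26643 genes. Its coordinates are its own. The planned comparison of proteins was done on coding sequences by global alignment. The 10 genes and all lists were chosen with earlier results of these data known. Beside the 10 genes, the 3 furthest up and the 3 furthest down in each list were named (FDR under 0.05, at least 20 reads). HSFA1A, HSFA1B, HSFA1D, HSFA1E, HSFA7B, HSFB1, HSC70-1, HSP90.2, HSP90.3, ADH1 and the overlapping genes were chosen after their values were seen. Alternatives were quantile normalization, median scaling, pseudocounts of 1 and 0.1, a mean of at least 100 reads, at least 2-fold, intervals on reads and, for the elements, the 250 bases upstream alone or 1 mismatch. Analysis used Python 3.11.15, numpy 2.4.6, pandas 2.3.3, scipy 1.17.1, Biopython 1.88 and matplotlib 3.10.9.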

Additional observations from a re-analysis of the deposited data

How the results depend on the processing

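No paired analysis was possible because the table joins the libraries of a genotype in 1 column that carries no number, and for the same reason leaving out a replicate, edgeR and DESeq2 were not run. The directions of the 9 genes with a ratio held under quantile normalization, and that of HSP90.1 also under median scaling. Median scaling only raised the log2 ratios, so it could not turn the 8 higher genes. A pseudocount added to both genotypes cannot turn any direction. The intervals on read pairs of the 9 genes excluded 1. Those on reads are narrower by construction and so excluded 1 too, which adds no check. The calls themselves could not change, since every setting kept the authors' FDR. Of the 8 higher genes, 4 remained with a mean of at least 100 reads and 5 at 2-fold, and the 1 lower gene left 0 at 2-fold. The 5 genes at least 2-fold higher became 2 with a pseudocount of 1 (HSFA2 and HSP17.6II) and 1 with a mean of at least 100 reads (HSFA2), since these settings shrink or remove genes with few reads. Quantile normalization raised the log2 ratios of HSP17.4, HSP22 and HSP23.6 from 2.31, 2.44 and 1.30 to 3.37, 3.66 and 2.44, and the cause was not tested. A pseudocount of 1 took HSFA2 to 1.92. In the 8 lists without the 10 genes, 48 higher and 33 lower became 24 and 6 at 2-fold. For 4 of the 81 called, HSFA6A, HSP70T-2, HSP70-16 and APX2, the interval on read pairs covered 1. Genes with a 2-unit element numbered 6, and 3 in the 250 bases upstream (16% of all promoters) and 10 with 1 mismatch (97% of all promoters). Those with a 3-unit element numbered 3, and 2 in the 250 bases upstream (0.394% of all promoters) and 7 with 1 mismatch (10.1%).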
